A study of Mus musculus with 18 samples.

Results

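Fos, Fosb, Jun, Junb, Atf3, Maff, Egr1, Nr4a1, Nr4a3 and Csrnp1 are 10 mouse genes of the immediate early response, and they are described here in neutrophils sorted from 6 tissues. They were chosen by name, as AP-1, Egr and Nr4a transcription factors and the related factor Csrnp1, and make up 10 of the 32328 genes of the deposited table. All 10 were among the 16157 genes tested. A gene was tested where its value was at least 1 in at least 3 of the 18 libraries.

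Neutrophils are short-lived phagocytes of the innate immune system that leave the marrow for the circulation and the tissues. The study compared such cells between tissues of C57BL/6 mice of 8 to 12 weeks, with no treatment given in the labels. Cells carrying Ly6G, a surface protein of mouse neutrophils, were sorted together with CD45, CD11b and a DNA dye, and the submitters gave a purity that was typically above 95%. Each of Blood, Spleen, Lung, the colon (Intestine), ear skin (Skin) and bone marrow (BM) gave 3 libraries, and total RNA was amplified with a kit made for very small inputs before sequencing as single reads of 61 nt. All groups share the strain, the sort and the amplification. Any step of releasing the cells that differed between tissues cannot be told apart from tissue here. The labels name neither sex nor animals, nor do they say whether the 3 libraries of a tissue came from separate animals. The p-values therefore measure the spread between these libraries, which may be technical.

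Immediate early genes are transcribed within minutes of a stimulus from factors already present in the cell, without new protein synthesis, and their RNAs decay quickly. Fos and Jun proteins pair through leucine zippers to form AP-1, which binds DNA and activates genes of growth, stress and inflammation. Serum response factor with its ternary complex partners, CREB and NF-kappaB are classic inputs to these promoters.

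The values are estimated read counts divided by an effective library size and multiplied by 1e6, called scaled counts here. They are not divided by gene length, so levels are compared between libraries for 1 gene and never between genes. Estimated counts per library, in units of 1e6 reads, totalled between 2.94 (Lung replicate 1) and 12.1. The 3 Skin libraries stood apart: their residual spread on the log2 scale was 1.31 to 1.66 against 0.535 to 0.976 in the other 15, and 2 predicted genes, Gm10800 and Gm10801, took 17.5% to 37.0% of their estimated counts against 0.672% to 5.75% elsewhere. Comparisons without Skin were therefore fitted on the 15 other libraries, and those with Skin on all 18 with a weight per library. Mitochondrial genes took 8.24% to 23.2% of the Intestine libraries and at most 2.87% of all others.

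The sorted identity was checked against 15 neutrophil markers. All 15 were detected in every library except Skin replicate 2, where 14 were. Their summed level was 37848 to 51523 in BM and 32908 to 35754 in Blood. It was lower in Spleen (11855 to 16410) and Lung (6795 to 21793), and it was 1043 to 1265 in Intestine and 2049 to 26742 in Skin. Against Blood, 9 of the 15 markers were lower and 1 higher in Lung, and 15 of 15 were lower in Intestine. In bulk RNA, fewer neutrophils in a sort and less of a transcript per neutrophil cannot be told apart.

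Every one of the 10 genes differed across the tissues. Of 10, 8 had their highest mean in Lung and 2, Fos and Maff, in Skin. The lowest mean was in BM for 7, in Intestine for Fos and Junb, and in Blood for Nr4a1. With limma on log2(value + 1) and Benjamini-Hochberg adjustment over all genes tested, 10 of 10 passed an adjusted p of 0.05 across 6 tissues, where 51.4% of all genes did. Across the 5 tissues without Skin the count was also 10 of 10, against 39.6% of all genes. Adjusted p-values across the 6 tissues ran from 1.33e-10 for Fosb to 0.000645 for Fos. In a fit on all 18 libraries without weights, Fos missed the threshold in both tests, with adjusted p of 0.0520 and 0.130.

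**Figure D1:**
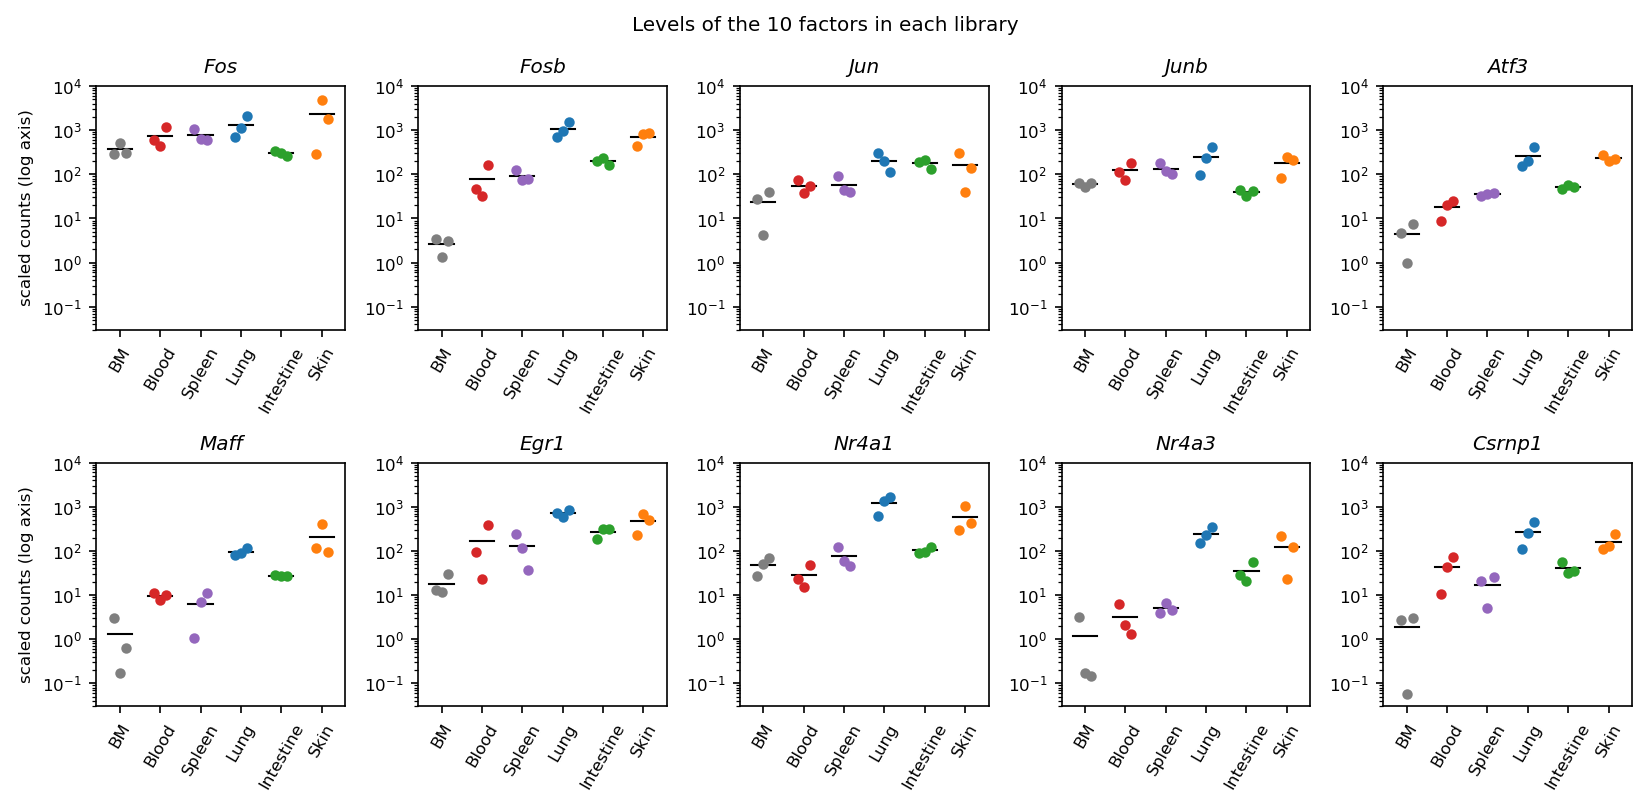
Scaled counts (log axis) of the 10 genes in each of the 18 libraries, by tissue. Points are libraries and the black bars are tissue means. Fosb runs from 1.31 in a BM library to 1559 in a Lung library, whereas Fos stays between 259 and 4866 in all 18.

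With Skin left aside, Lung was the tissue in which the whole set was higher than the mean of the others. Against the mean of BM, Blood, Spleen and Intestine, 10 of 10 were higher in Lung, where 6.39% of all genes were higher and 1.22% lower, and the median log2 difference was 3.61 for the 10 genes and -0.0029 for all genes tested. Among the settings run, the calls of Fos, Jun and Junb were lost in 4, 5 and 3 of 27, and those of the other 7 in none. For Fos, Jun and Junb the Lung libraries also overlapped those of the other tissues. Against Spleen alone these genes did not pass (limma adjusted p = 0.350, 0.0638 and 0.388). Against Blood alone, 8 of 10 were higher in Lung and none lower, against 10.3% and 5.35% of all genes. For those same 8 genes every Lung library was above every Blood library, which held for 17.6% of all genes. The 2 that did not pass against Blood were Fos and Junb, and each passed in 2 of 28 alternative settings. These were quantile normalization and leaving out Blood replicate 3 for Fos, and all 18 libraries with weights and leaving out Lung replicate 1 for Junb. The comparisons with Blood below share the 3 Blood libraries.

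**Figure D2:**
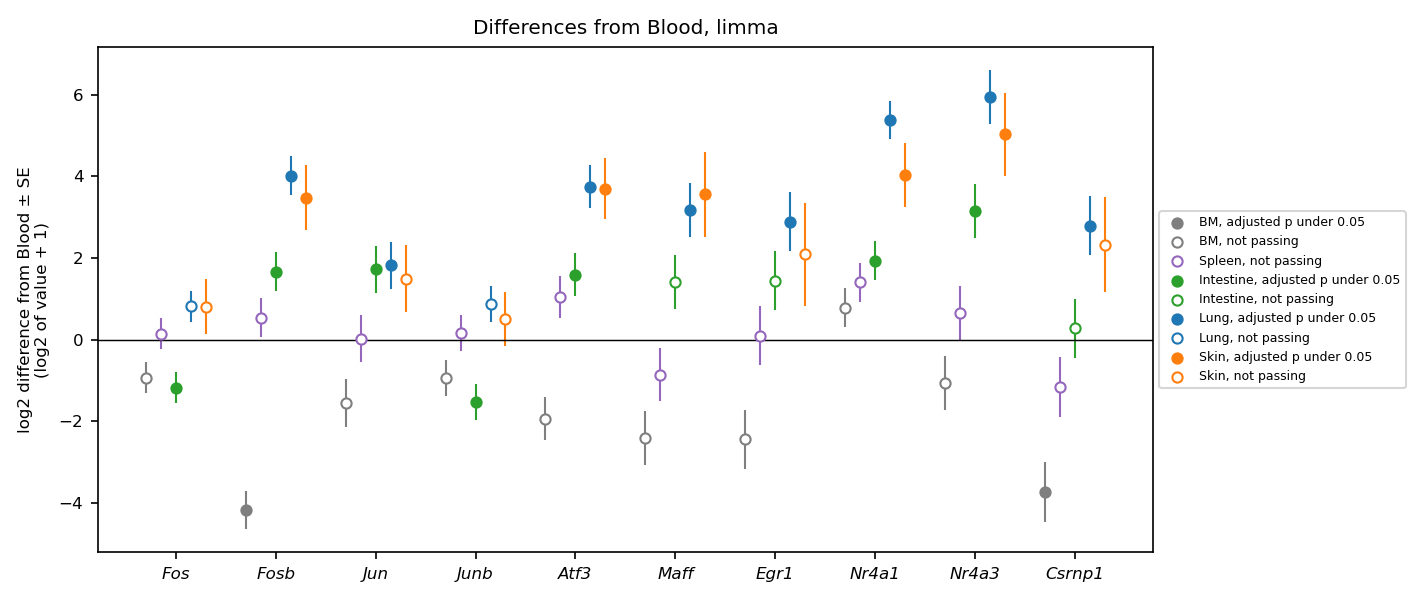
Log2 difference from Blood (of value + 1) of each gene in the 5 other tissues, with its standard error from limma. Filled points passed an adjusted p of 0.05. Lung or Skin lies highest for each gene, Intestine lies lowest for Fos and Junb, and BM lies lowest for the other 8.

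Promoter sequences are shown for 4 of the genes. The 250 bases before annotated starts were taken from RefSeq on GRCm38.p6. The set of windows used here held 14 starts of 9 of the 10 genes. It was incomplete and held no window for Egr1, so the promoter of Egr1 was not searched. Nr4a3 and Nr4a1 are shown as the genes with the largest Lung minus Blood differences, Fos as the one with the smallest, and Maff because it held the full cyclic AMP response element. Each is written 5′ to 3′ on the strand of its gene, and the capitals mark the core TGACG or its reverse complement CGTCA, the full element TGACGTCA and the TATA box TATAAA. Their windows are chr4:48045055-48045304 (plus strand) for Nr4a3, chr15:101266596-101266845 (plus) for Nr4a1, chr15:79347270-79347519 (plus) for 1 of 3 Maff starts and chr12:85473640-85473889 (plus) for Fos.
Nr4a3: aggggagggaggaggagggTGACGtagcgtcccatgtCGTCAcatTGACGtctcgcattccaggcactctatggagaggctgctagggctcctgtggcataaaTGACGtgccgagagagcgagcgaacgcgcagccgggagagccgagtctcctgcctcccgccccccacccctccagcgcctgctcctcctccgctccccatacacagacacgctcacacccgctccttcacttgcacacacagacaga
Nr4a1: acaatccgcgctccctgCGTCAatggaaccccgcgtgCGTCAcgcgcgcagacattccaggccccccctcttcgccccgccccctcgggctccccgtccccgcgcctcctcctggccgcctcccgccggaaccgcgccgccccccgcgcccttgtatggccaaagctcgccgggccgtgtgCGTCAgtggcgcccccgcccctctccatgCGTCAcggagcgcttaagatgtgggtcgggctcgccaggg
Maff: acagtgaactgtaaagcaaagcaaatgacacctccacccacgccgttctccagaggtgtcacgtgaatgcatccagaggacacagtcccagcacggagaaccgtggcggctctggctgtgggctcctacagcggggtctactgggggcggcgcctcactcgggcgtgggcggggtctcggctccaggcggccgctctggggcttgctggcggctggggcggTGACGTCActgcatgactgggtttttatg
Fos: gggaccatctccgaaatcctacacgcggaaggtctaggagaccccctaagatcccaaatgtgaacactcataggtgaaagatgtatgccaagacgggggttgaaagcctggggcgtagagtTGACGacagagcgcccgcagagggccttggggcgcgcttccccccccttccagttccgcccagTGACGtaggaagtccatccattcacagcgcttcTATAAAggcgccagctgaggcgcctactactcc

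Nr4a3 (Lung minus Blood log2 difference 5.94) and Nr4a1 (5.38) each carried 4 copies of the core. Fosb (4.02), Atf3 (3.75) and Junb (0.88) had 1 copy each, Fos (0.82) had 2 and Jun (1.82) had 0. Csrnp1 (2.80) had 5 over its 4 starts. Maff (3.18) had 3 over its 3 starts, with the full element counted on both strands. A relation between copies and differences was not tested. In Nr4a1 the nearest copy covered bases -40 to -36 from the start. In Fos the nearer of 2 copies covered bases -66 to -62, upstream of a TATA box at -33 to -28. The core TGACG, searched on both strands, was present at 12 of the 14 starts, in 8 of 9 genes (all but Jun), and in 17.8% of 32851 mouse promoter windows of the same length. This motif was picked with the sequences in view, starts of 1 gene can overlap, and any full element TGACGTCA contains it, so the shares are a description. The full element was in 1 member gene, Maff, and in 1.55% of all windows. The AP-1 site TGANTCA was in 1 gene, Csrnp1, and in 6.75% of windows. The Egr site GCGNGGGCG was in Fosb, Maff and Nr4a1 and in 4.7% of windows. An NF-kappaB site was in Fos, Fosb and Maff and in 7.25% of windows. Neither the CArG box bound by serum response factor nor the Nr4a monomer site AAAGGTCA was in any of these 14 windows, against 1.47% and 1.34% of all windows. Bases outside these short windows and the promoter of Egr1 were not searched. The absence therefore does not show that the genes lack such sites.

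Fos (chr12:85473890-85477273, GRCm38, plus strand), the founding partner of the AP-1 dimer, was expressed in every library. Its scaled counts were 294, 500 and 305 in BM, 600, 438 and 1170 in Blood, and 1091, 634 and 612 in Spleen. Lung held 711, 1122 and 2129, Intestine 334, 309 and 259, and Skin 290, 4866 and 1800. Intestine was the low tissue, with all 3 libraries below all 3 of Blood, while Lung overlapped Blood and the Skin libraries spread over a wider range than those of any other tissue. The Lung minus Blood difference was 0.82 ± 0.38 (log2, SE; adjusted p = 0.163). Intestine was lower than Blood by a log2 difference of -1.17 ± 0.38 (limma adjusted p = 0.0206). That call was lost under quantile normalization, median-of-ratios scaling and 5 other settings.

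Fosb (chr7:19302696-19310051, minus strand) encodes another Fos family protein that pairs with Jun proteins in the same way. Its highest and lowest tissue means lay further apart than those of the other 9 genes. BM held 3.39, 1.31 and 3.14 scaled counts, which rest on 32, 11 and 32 reads. Blood held 45.8, 31.7 and 160, and Spleen 123, 74.4 and 80.3. Lung reached 704, 959 and 1559, Intestine 199, 234 and 167, and Skin 443, 837 and 871. BM lay far below all other tissues, Blood and Spleen overlapped, Intestine was above both, and Lung and Skin overlapped at the top. Lung exceeded Blood by 4.02 ± 0.47 (log2; limma adjusted p = 1.61e-05) and BM fell below Blood by a log2 difference of -4.17 ± 0.47 (adjusted p = 9.64e-05). The mean in Lung was 411 times that in BM.

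Jun (chr4:95049034-95052222, minus strand), the AP-1 subunit that can also pair with itself, had a pattern of its own inside Lung. It measured 28.3, 4.29 and 39.0 scaled counts in BM, 74.3, 36.8 and 53.6 in Blood, and 90.5, 43.9 and 39.2 in Spleen. The Lung values were 305, 200 and 110, those of Intestine 193, 214 and 133, and those of Skin 307, 40.0 and 138. Lung and Intestine lay above all Blood libraries and overlapped each other, and Skin covered the range from Blood to Lung. The Lung minus Blood difference was 1.82 ± 0.58 (log2; limma adjusted p = 0.0386). This was the least stable of the 8 calls, lost in 10 of 28 alternative settings, among them the fits without each Blood library and without Lung replicate 1 or 2. Intestine exceeded Blood by 1.72 ± 0.58 (adjusted p = 0.0240), a call lost in 7 of 27 settings.

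Junb (chr8:84974484-84978718, minus strand), a Jun protein that often restrains Jun, followed Jun little over the libraries (Pearson 0.08). BM had 63.6, 51.9 and 64.8 scaled counts, Blood 115, 74.1 and 179, and Spleen 180, 118 and 103. Lung had 94.7, 238 and 425, Intestine 44.9, 32.7 and 42.0, and Skin 82.8, 248 and 212. Intestine was again lowest, with no library reaching the lowest Blood value, and Lung replicate 1 sat within the Blood range. Lung minus Blood was 0.88 ± 0.44 (log2; limma adjusted p = 0.191), and Intestine minus Blood was -1.52 ± 0.44 (adjusted p = 0.00940). Leaving out Blood replicate 3 ended the Intestine call of both Fos and Junb, and so did the fit of all 18 libraries without weights.

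Exonic bases of Jun, Junb and Csrnp1 overlap genes on the opposite strand in GENCODE vM21. The overlaps are 232 of 3189 bases with Junos, 173 of 2301 with Prdx2 and 224 of 3473 with 1700019L13Rik. Since strand use is not given in the sources used here, reads from these stretches cannot be assigned to 1 of the overlapping genes.

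Atf3 (chr1:191170296-191218039, minus strand) is a stress-induced bZIP factor that can bind AP-1 and cyclic AMP response elements and often represses inflammatory genes. BM held 4.75, 0.971 and 7.49 scaled counts, Blood 8.79, 19.9 and 25.3, and Spleen 32.1, 35.4 and 38.5. Lung held 157, 202 and 409, Intestine 46.0, 58.2 and 52.4, and Skin 281, 197 and 218. From BM up to Intestine the libraries of neighbouring tissues did not overlap, though none of these steps passed the test. Lung and Skin overlapped above them. Against Blood, Lung was higher by 3.75 ± 0.52 (log2; limma adjusted p = 8.60e-05) and Intestine exceeded Blood by 1.60 ± 0.52 (adjusted p = 0.0207). The Intestine call was lost in 4 of 27 settings, without Blood replicate 1 (adjusted p = 0.116), without Intestine replicate 2 or 3, and on all 18 libraries without weights. Spleen lay above all Blood libraries, as for 13.5% of all genes, with a difference of 1.05 ± 0.52 that did not pass (adjusted p = 0.409). BM lay below all Blood libraries, as for 9.93% of all genes, at -1.93 ± 0.52 (adjusted p = 0.0612). Intestine minus Spleen was 0.55 ± 0.52 (limma adjusted p = 0.478).

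Maff (chr15:79346621-79359076, plus strand) is a small Maf protein with no activation domain of its own that works as a partner of other bZIP factors. It was near the detection limit in BM, at 3.08, 0.171 and 0.628 scaled counts from 29, 1 and 6 reads. Blood held 11.1, 7.57 and 10.3, Spleen 1.04, 7.02 and 11.1, and Intestine 28.0, 26.3 and 27.1. Lung held 80.9, 88.4 and 119, and Skin 113, 405 and 95.5. Intestine, Lung and Skin were above every library of the other 3 tissues, and Intestine was below every Lung and Skin library. Lung exceeded Blood by 3.18 ± 0.66 (log2; limma adjusted p = 0.00255), whereas Intestine minus Blood was 1.42 ± 0.66 and did not pass (adjusted p = 0.0962).

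Egr1 (chr18:34859823-34864984, plus strand) is a zinc finger factor that binds GC-rich sites and is among the fastest targets of ternary complex factors. Its Blood and Spleen libraries spread widely. Blood held 93.7, 22.5 and 392 scaled counts and Spleen 241, 117 and 36.8. BM held 13.2, 11.5 and 29.9, Lung 720, 592 and 834, Intestine 181, 305 and 314, and Skin 228, 669 and 490. All Lung libraries were above all libraries of the 4 other tissues without Skin, BM overlapped Blood only at Blood replicate 2, and Blood replicate 3 exceeded every Intestine library. Against Blood, Lung was higher by 2.89 ± 0.72 (log2; limma adjusted p = 0.00966). The difference was 3.91 without Blood replicate 3 and 1.88 without Blood replicate 2, where the call was lost (adjusted p = 0.0723), as it was without the filter on low values.

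Nr4a1 (chr15:101254269-101274795, plus strand), or Nur77, is an orphan nuclear receptor whose activity follows its abundance. BM held 26.3, 49.8 and 69.7 scaled counts, Blood 23.5, 15.1 and 47.7, and Spleen 125, 59.4 and 45.7. Lung held 615, 1363 and 1642, Intestine 90.4, 92.4 and 125, and Skin 296, 1037 and 438. The lowest Lung library was well above the highest library of BM, Blood, Spleen and Intestine, and BM, Blood and Spleen overlapped. Lung exceeded Blood by 5.38 ± 0.47 (log2; limma adjusted p = 1.12e-06), and the means stood 42.0-fold apart. Intestine exceeded Blood by 1.94 ± 0.47 (adjusted p = 0.00283). Both calls held in all alternative settings run, with adjusted p up to 0.000351 and 0.0323.

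Nr4a3 (chr4:48045153-48086447, plus strand), the related receptor NOR1, was nearly silent outside Lung, Intestine and Skin. BM held 3.24, 0.171 and 0.145 scaled counts, from 30.6, 1 and 1 reads, Blood held 6.20, 2.12 and 1.302, and Spleen 3.83, 6.44 and 4.59. Lung held 149, 226 and 351, Intestine 28.7, 20.5 and 55.3, and Skin 215, 23.6 and 125. All 9 libraries of Lung, Intestine and Skin were above all 9 of the other tissues, and Skin replicate 2 fell into the Intestine range. Lung exceeded Blood by 5.94 ± 0.67 (log2; limma adjusted p = 1.03e-05) and Intestine exceeded Blood by 3.15 ± 0.67 (adjusted p = 0.000856). These calls too held in every alternative run, with adjusted p up to 0.00114 and 0.0187.

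Csrnp1 (chr9:119971163-119984658, minus strand) is a nuclear protein induced by axin and by cytokines. BM held 2.73, 0.0571 and 3.02 scaled counts, and BM replicate 2 had 0 estimated reads, which allows up to 3. Blood held 10.4, 42.6 and 73.8, Spleen 20.5, 4.96 and 25.3, and Intestine 56.2, 31.3 and 34.9. Lung held 110, 248 and 449, and Skin 109, 126 and 243. BM was below every other tissue, Blood, Spleen and Intestine overlapped, and Lung and Skin were above them all. The Lung minus Blood difference was 2.80 ± 0.73 (log2; limma adjusted p = 0.0124), a call lost in 4 of 28 settings, among them the fits without Blood replicate 1 and without Lung replicate 2 or 3. BM was lower than Blood at -3.73 ± 0.73 (adjusted p = 0.0108), a call lost in 5 of 28, among them the fits without BM replicate 2 and without Blood replicate 2.

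Neighbouring tissues in a gene's order of means mostly did not differ beyond their spread. Among the 50 neighbouring pairs of the 10 genes, 2 passed limma's adjusted p of 0.05, Blood above BM for Fosb and Intestine above Spleen for Nr4a3 (adjusted p = 0.00721), a comparison in which 15.1% of all genes were higher and 14% lower. Lung and Skin were the top pair for 9 genes and did not separate for any, with adjusted p of 0.403 to 0.995. Among all genes 0.452% were higher and 0.947% lower in Skin than in Lung. For Jun the top pair was Lung and Intestine (adjusted p = 0.950). The count rose to 5 without Blood replicate 3.

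Of the 10 genes, 9 had a lower mean in BM than in Blood. Fosb and Csrnp1 passed the test, and none was higher, against 0.823% lower and 1.26% higher among all genes. For 5 genes every BM library was below every Blood library, which held for 9.93% of all genes, and for none was every BM library above (9.37% of all genes). Of the 10, 8 had an unadjusted p under 0.05, against 13.8% of all genes. The median log2 difference was -1.74 for the 10 genes and -0.0040 for all. Nr4a1 was the 1 gene with a higher mean in BM, at 48.6 ± 21.7 against 28.7 ± 16.9 scaled counts (SD, n = 3), a difference that did not pass (0.79 ± 0.47, limma adjusted p = 0.512). Without BM replicate 2, the lowest of the 3 BM libraries for 7 of the 10 genes, only Fosb passed, and with limma-voom on the recovered counts none did.

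Spleen and Blood gave no call. None of the 10 passed limma's test in either direction, against 1.73% higher and 0.706% lower among all genes, and limma-voom also called 0. Nr4a1 alone had an unadjusted p under 0.05 (log2 difference 1.40 ± 0.47, adjusted p = 0.144), as did 13.1% of all genes. The Spleen libraries held more B cell RNA, with 10 of 10 markers detected and a summed level of 2193 to 4188 against 99.6 to 164 in Blood, and its part in these values was not tested.

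Intestine was the tissue in which the genes parted. Nr4a3, Nr4a1, Jun, Fosb and Atf3 were higher than in Blood, Junb and Fos were lower, and Maff, Egr1 and Csrnp1 did not pass. The background was wide, with 22.2% of all genes higher and 17.4% lower, so the shares of 5 and 2 in 10 stand against large shares of all genes. Every Intestine library was above every Blood library for 6 genes and below for 2, against 26% and 24.1% of all genes. Under quantile normalization or median-of-ratios scaling the split was 6 higher and 1 lower, and these scalings moved the median of all genes from 0.12 to -0.18 and 0.33. Without Blood replicate 3 it was 5 and 0, and without Blood replicate 2 the call of Fosb was lost (adjusted p = 0.0675).

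Markers of other cells moved with Intestine. All 10 fibroblast and muscle markers were detected, with a summed level of 6483 to 13907 against 61.4 to 80.8 in Blood. All 12 endothelial markers were higher than in Blood, summing to 781 to 2303 against 66.9 to 78.9. Of 12 macrophage markers, 11 or 12 were detected and the sum was 803 to 1433 against 550 to 807. Gut epithelial markers summed to 185 to 547, with 5 to 9 of 9 detected, against 1.42 to 10.8 in Blood. All 15 neutrophil markers were detected in these libraries at the low sums given above, and the part of the other cells in the Intestine values was not tested.

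Within Lung the 3 libraries did not carry the set equally. Lung replicate 3 was highest for 9 of 10 genes, and replicate 1 was lowest for 8 and highest for Jun. The endothelial marker sum went the other way, at 4905, 3146 and 1333 in replicates 1, 2 and 3, with 12 of 12 markers detected in each. Lung epithelial markers also had their highest sum in replicate 1, at 3436, 2239 and 716, with 8 or 9 of 9 detected, against at most 140 in Blood. Fibroblast and muscle markers summed to 1345, 842 and 209, with 9 or 10 of 10 detected, against 61.4 to 80.8 in Blood, and 8 of the 10 were higher than in Blood. Neutrophil markers summed to 6795, 11528 and 21793. Lung replicate 3 thus had the highest neutrophil sum and the lowest sums of these 3 other lists, and replicate 1 the reverse. B cell markers also fell over the 3 replicates, at 947, 790 and 265, against 99.6 to 164 in Blood. So did T and NK cell markers, at 160, 93.2 and 57.5 against 28.1 to 58.7. Dendritic cell markers summed to 295, 270 and 128, against 55.8 to 88.8. Mast and basophil markers summed to 189, 71.9 and 10.8, against 14.4 to 25.6. Not every list did so. Erythroid and gut epithelial sums were lowest in replicate 2. Macrophage markers summed to 593, 470 and 641, against 550 to 807 in Blood. Keratinocyte markers summed to 116, 38.3 and 131, against 1.02 to 11.9 in Blood. Both were highest in replicate 3. The part of the other cells in the Lung values was not tested. Fosb, Nr4a1, Nr4a3, Atf3, Maff and Egr1 each passed Lung minus Blood when any 1 Lung library was left out.

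**Figure D3:**
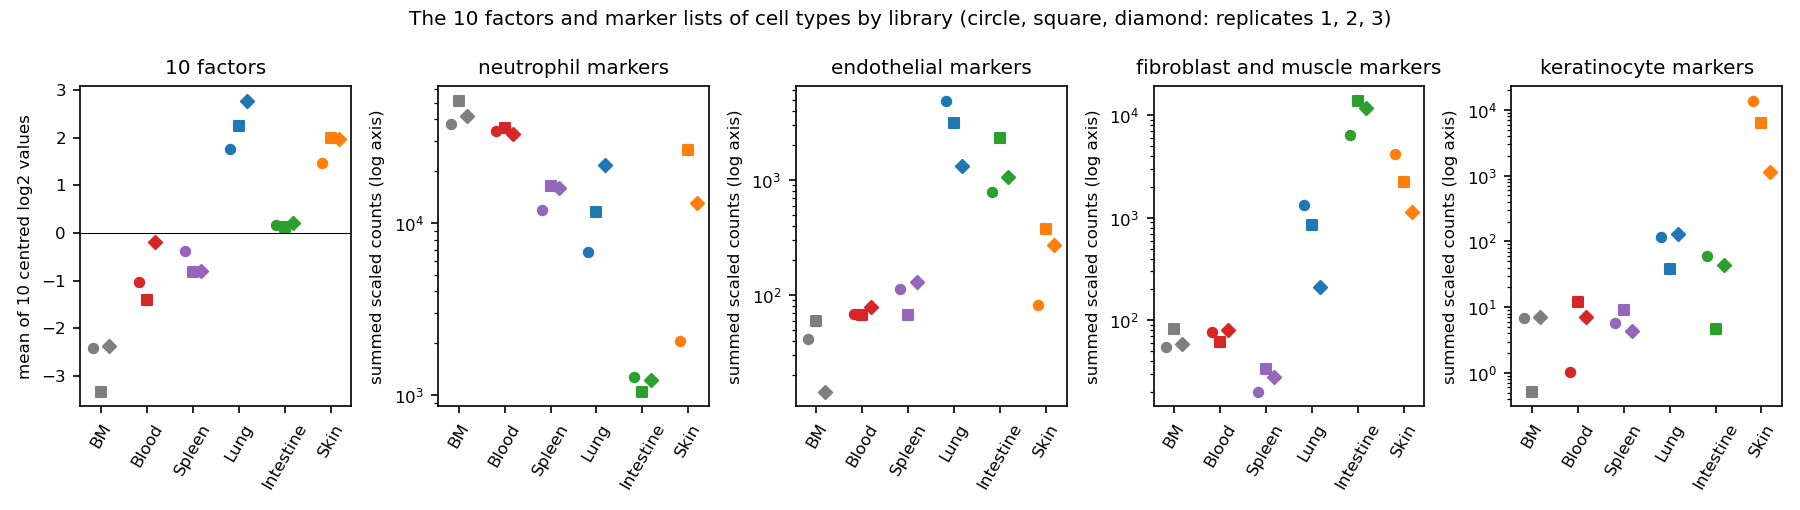
Mean over the 10 genes of their log2(value + 1), each centred on its mean over 18 libraries, beside the summed scaled counts of 4 marker lists (log axes), by library. Lung replicate 3 (diamond) has the highest mean of the 10 genes, 2.79, and the lowest endothelial sum of the 3 Lung libraries.

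In Skin 5 of 10 genes were higher than in Blood and none lower, against 2.74% and 4.36% of all genes. They were Nr4a3 (log2 difference 5.03 ± 1.01), Nr4a1 (4.03 ± 0.79), Atf3 (3.70 ± 0.74), Maff (3.56 ± 1.03) and Fosb (3.48 ± 0.79), with limma adjusted p of 0.00392 to 0.0368. All Skin libraries were above all Blood libraries for these 5 and for Csrnp1, as for 16.5% of all genes. None of the 5 calls remained without Skin replicate 1, without Skin replicate 3, or in a fit of the 6 Skin and Blood libraries alone. Keratinocyte markers summed to 13891, 6363 and 1129 in Skin replicates 1, 2 and 3, with 8 or 9 of 9 detected, against 1.02 to 11.9 in Blood. Fibroblast and muscle markers summed to 1137 to 4209, with 7 to 9 of 10 detected, and their part in the Skin values was not tested.

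Over the 18 libraries most of the 10 genes varied together. Pearson correlations of log2(value + 1) among the 45 gene pairs had a median of 0.76 and ran from -0.03 for Fos and Jun to 0.95 for Fosb and Atf3. The libraries share tissues, so these values describe the tissue pattern and carry no test. Without the Skin libraries the same 2 pairs stood at 0.14 and 0.96. Fos and Junb on one side and Jun on the other were the members that followed each other least. For single genes the most similar of all tested genes was another member for Fosb, Atf3, Egr1 and Csrnp1, Dusp1 for Fos (0.92), Nlrp3 for Junb (0.91), Adgrl3 for Jun (0.93), Nkx2-1 for Maff (0.93), Tnfaip3 for Nr4a1 (0.93) and Tmcc3 for Nr4a3 (0.93). Nkx2-1 is a lung epithelial marker on the list above, but its highest library, like that of Maff, was Skin replicate 2.

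The 8 other genes closest to the mean of the set over 18 libraries were Tnfaip3 (Pearson 0.95), Cxcl2 (0.93), Ets2 (0.93), Nfkbia (0.91), Cdkn1a (0.91), Plk2 (0.89), Cd14 (0.89) and Maoa (0.88). Tnfaip3 and Nfkbia encode brakes on NF-kappaB, Cxcl2 a chemokine for neutrophils, and Cdkn1a the cell cycle inhibitor p21. The Lung mean of Tnfaip3 was 1960 ± 597 scaled counts, beside 1131 ± 467 for Skin, 161 ± 64.8 for Intestine and 51.9 ± 6.88 for Blood (SD, n = 3). The same means of Cxcl2 were 729 ± 414, 1107 ± 926, 54.1 ± 16.5 and 26.6 ± 12.8. Both had the same order of Intestine below Lung and Skin as most of the 10. They were picked by this correlation, so the shared order is no separate result.

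Genes around the set were described from lists that include other family members, the inputs, further immediate early genes, chaperones and inflammatory mediators. Against Blood, 10.3% of all genes were higher and 5.35% lower in Lung, and 22.2% were higher and 17.4% lower in Intestine. Most other AP-1 and bZIP factors did not pass in Lung. Of 20 tested, 2 were higher and 2 lower than in Blood, with a median log2 difference of 0.01 beside 3.04 for the 10 genes and 0.03 for all genes. The higher ones were Fosl1, a further Fos family member, which had 3.27, 14.8 and 11.1 scaled counts in Lung and 0.0598, 0.0544 and 0.260 in Blood, where the lower values are the floor of 0 reads, and Atf4 (1.48 ± 0.40, limma adjusted p = 0.0147), the factor of the integrated stress response. The lower ones were Cebpd (-1.45 ± 0.33, adjusted p = 0.00507) and Mafg (-1.05 ± 0.33, adjusted p = 0.0360). In Intestine 3 of the 20 were higher and 8 lower, against 22.2% and 17.4% of all genes, led by Cebpd (-3.15 ± 0.33, adjusted p = 4.93e-07) and Fosl2 (-2.03 ± 0.31, adjusted p = 3.92e-05).

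Of 7 other Egr, Nr4a, Csrnp and Nab genes tested, 1 was higher in Lung and none lower, against 10.3% and 5.35% of all genes. That gene, Egr3, had 4.83, 0.992 and 7.92 scaled counts in Lung and 0 reads in all 3 Blood libraries (adjusted p = 0.0465). For Nr4a2, the third Nr4a receptor, the Lung mean was 43.7 and the Blood mean 14.9, a difference short of the threshold (1.83 ± 0.80, adjusted p = 0.132), and Egr2 also fell short (2.52 ± 1.01, adjusted p = 0.0984). In Intestine none of the 7 passed, against 22.2% higher and 17.4% lower among all genes.

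Among 21 upstream genes, serum response factor, its partners and the MAP kinases, 2 were higher and 1 lower in Lung than in Blood. Both counts lie near the shares of all genes, 10.3% and 5.35%, and the median was -0.27. Mrtfb (2.71 ± 0.64, limma adjusted p = 0.00655), a coactivator of serum response factor, and Elk3 (1.59 ± 0.38, adjusted p = 0.00714), a ternary complex factor, were higher, and Mrtfa, the sister of Mrtfb, was lower (-1.26 ± 0.37, adjusted p = 0.0247). In Intestine 4 were higher and 9 lower, against 22.2% and 17.4% of all genes. Mrtfb was again higher (3.70 ± 0.64, limma adjusted p = 0.000129) and Mapk14, the p38 kinase, lower (-2.18 ± 0.28, adjusted p = 4.63e-06). In Lung replicates 1, 2 and 3 Mrtfb held 81.6, 46.6 and 15.3 scaled counts, beside 4.67, 13.5 and 1.78 in Blood. Elk3 held 125, 92.2 and 53.9, beside 37.5, 21.4 and 26.6. The endothelial and the fibroblast and muscle sums fell in the same order over the Lung libraries. The part of other cells in the Mrtfb and Elk3 values was not tested.

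Further immediate early genes were called in both directions. Of 36 tested, 14 were higher and 3 lower in Lung than in Blood, against 10.3% and 5.35% of all genes, with a median of 0.91. Ptgs2, the inducible prostaglandin synthase, went from 79.9 to 2617 scaled counts (5.26 ± 0.54, limma adjusted p = 4.67e-06), and Btg2, an antiproliferative gene, from 462 to 2750 (2.63 ± 0.34, adjusted p = 4.47e-05). Ccn1, a matricellular protein, rose by 5.49 ± 0.77 (adjusted p = 8.64e-05). In Intestine more were lower than higher, 16 against 6, with a median of -0.78. Among all genes 17.4% were lower and 22.2% higher. Socs3 (-2.92 ± 0.27, adjusted p = 1.37e-07), Rgs2 (-3.02 ± 0.30, adjusted p = 2.72e-07) and Ier5 (-2.47 ± 0.26, adjusted p = 4.64e-07) were among the lower ones.

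Heat shock and chaperone genes were higher in both Lung and Intestine. In Lung 12 of 15 were higher and none lower, against 10.3% and 5.35% of all genes. In Intestine the counts were 13 and none, against 22.2% and 17.4%. The medians were 2.14 and 3.20. Hsp90ab1 rose by 2.14 ± 0.27 in Lung (limma adjusted p = 3.35e-05) and 3.20 ± 0.27 in Intestine (adjusted p = 5.17e-08), and Hspa1a, the inducible HSP70, by 5.06 ± 0.82 and 6.21 ± 0.82 (adjusted p = 0.000312 and 6.98e-06). Hspa1a and Hspa1b are near-identical copies, so their single values are uncertain. Inflammatory mediators known as AP-1 or NF-kappaB targets were higher in Lung for 16 of 19 and lower for none, with a median of 3.35. They included Tnfaip3 (5.17 ± 0.35, adjusted p = 1.09e-07), Thbs1 (4.14 ± 0.34, adjusted p = 9.00e-07) and Nfkbia (3.05 ± 0.32, adjusted p = 6.37e-06). In Intestine the mediators had 4 higher and 4 lower, near the shares of all genes. Thbs1 was higher (3.16 ± 0.34, limma adjusted p = 7.24e-07), and Mmp9 (-4.73 ± 0.32, adjusted p = 7.23e-09) and Il1b (-2.25 ± 0.32, adjusted p = 1.49e-05) were lower. Mmp9 is also on the neutrophil marker list.

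**Figure D4:**
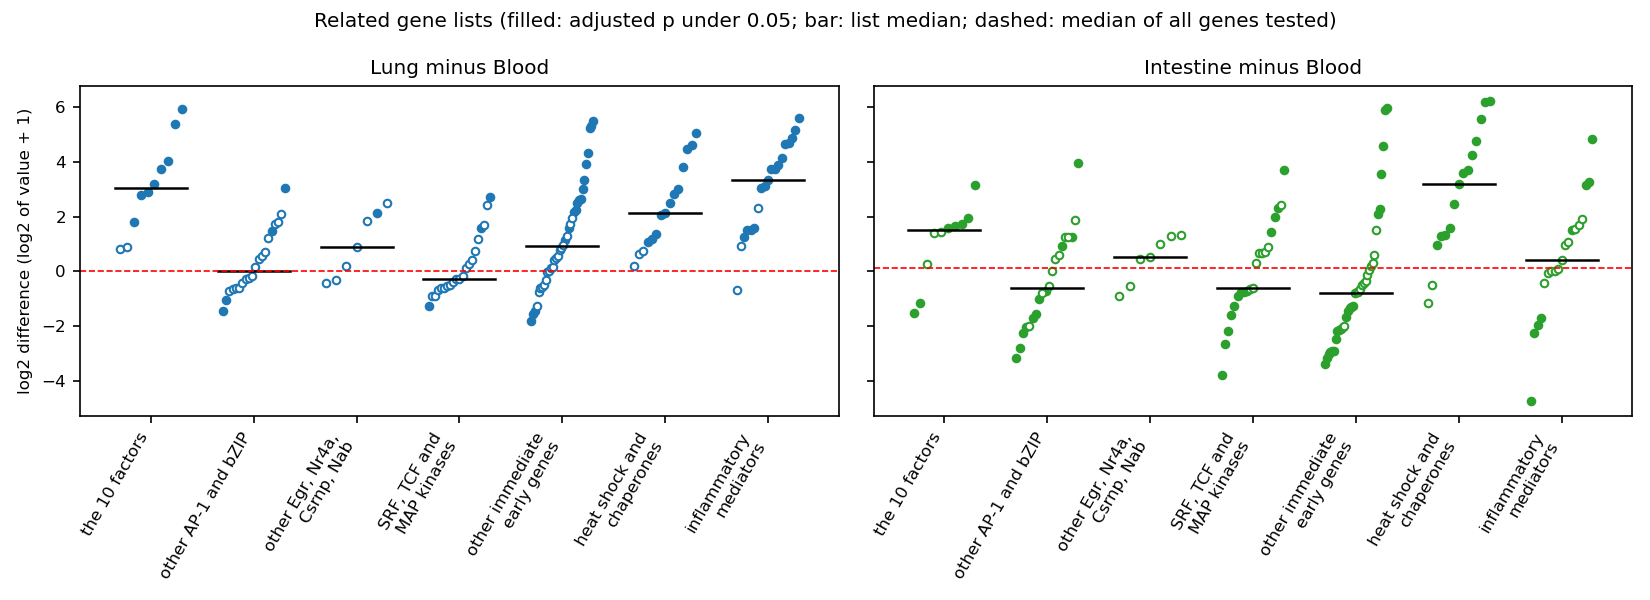
Log2 difference from Blood of each tested gene of the set and of 6 related lists, in Lung and Intestine. Filled points passed limma's adjusted p of 0.05, bars are list medians and the dashed line is the median of all genes tested. The mediators have a median of 3.35 in Lung and 0.42 in Intestine, and the chaperones of 2.14 and 3.20.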

How the data were processed

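The deposited table gives 1 signal value for each of 32328 genes in 18 libraries, and CASAVA, RSEM 1.3.1 and limma on mm10 are named in the submitters' processing notes, with no order. Although the file is labelled TPM, the deposited signal values carry no gene length: adding 0.5 to an estimated count, dividing by 1 more than the effective library size and multiplying by 1e6 gives them, as read from the values. Estimated counts were recovered from that relation. Symbols came from GENCODE vM21 (GRCm38), which named 31820 genes and left 508 unnamed.

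Tests used limma 3.58.1 in R 4.3.3 on log2(value + 1) for genes that reached 1 in 3 or more libraries. The prior was trended and p-values were adjusted by Benjamini-Hochberg over every gene tested. On this scale changes of low genes are understated. Pairs without Skin used the 15 libraries of the other tissues (16156 genes), and pairs with Skin and the test over 6 tissues used all 18 (16157 genes) with arrayWeights. The design had assumed TPM, and the same test was kept. The fit was checked on simulated counts. The simulation gave all libraries without Skin the same spread, so it could not test the unequal spread among them. Figures were drawn with matplotlib 3.10.9.

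The 10 genes and all lists were chosen with earlier results of these data known. All 10 are named; from each list, up to 4 genes with the smallest adjusted p in a comparison; and by Pearson correlation over 18 libraries the 8 other protein-coding genes most like the mean of the set and, of all genes tested, the 1 most like each member. Alternatives were other pseudocounts, filters, scalings and fits, limma-voom on the recovered counts, a replicate block and leaving out each library. Leaving out the Intestine libraries, and all alternatives for neighbouring tissues, were chosen after seeing the data.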

Additional observations from a re-analysis of the deposited data

How the results depend on the processing

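Counts of genes that passed were recomputed under each alternative. All 10 passed across tissues in every fit without 1 library (10 to 10), and 9 passed across BM, Blood, Spleen and Lung, without Junb. BM minus Blood gave 2 in the reported fit, 0 with limma-voom, 1 on all 18 libraries without weights, 4 with arrayWeights, 1 on the 6 libraries of the pair and 1 to 3 without 1 library. Intestine minus Blood gave 7, and 3 on all 18 without weights and 5 to 7 without 1 library. Skin minus Blood gave 5, and 3 without the filter, 0 on the 6 libraries of the pair and 0 to 5 without 1 library. Spleen minus Blood gave 0, also without any 1 library (0 to 0), and 1 on all 18 with arrayWeights. Lung minus Blood gave 8 (6 to 8 without 1 library), and 7, without Jun, when the Intestine libraries were left out. Lung against the other 4 tissues gave 10 (7 to 10). Neighbouring pairs gave 2 (2 to 5), and 5 with a pseudocount of 5, 5 with quantile normalization, 4 with median-of-ratios scaling, 5 with limma-voom, 5 on all 18 without weights and 6 with arrayWeights.

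Signs changed only for differences that had not passed. For Spleen minus Blood, without Blood replicate 2 and without Spleen replicate 1, Egr1 was -0.91 and -0.52, Fos -0.16 and -0.12, Jun -0.23 and -0.34, and Junb -0.14 and -0.06. The highest values without 1 library were 1.12, 0.55, 0.27 and 0.49 for these genes. Csrnp1 in Intestine minus Blood was -0.50 without Blood replicate 1 and at most 0.86. The cause of these changes was not tested.

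Same-numbered libraries of 2 tissues correlated at -0.06 to 0.106 in their deviations over 45 pairs, 1 of them over 0.1, so the numbers were not taken as pairing. In the sample descriptions Blood replicate 3 has the letter D, whereas replicate 3 of every other tissue has C. Blood replicate 2 and Skin replicate 1 carry the suffix rep. The correlations and the replicate block went by number. With a replicate block, 10 passed in both tests across tissues. Against Blood, 5 passed for Skin, 7 for Intestine, 8 for Lung, 0 for Spleen and 3 for BM. It gave 10 in Lung against the others and 3 of the neighbouring pairs. Counts of 0 to 32 reads limit Maff, Nr4a3, Csrnp1 and Fosb in BM.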
